A study of Mus musculus with 10 samples.

Results

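The 37 mouse genes described here encode cyclins, cyclin-dependent kinases (CDKs), CDK inhibitors, and the phosphatases and the kinase WEE1 that set CDK activity. They were chosen by name as components of the cell cycle and CDK machinery, out of 19480 genes that the features of this RNA-seq experiment could be assigned to. RNA came from C57BL/6 mouse embryonic stem cells (ESC), grown with LIF on mitomycin C-treated fibroblast feeders or gelatin. The groups were WT; DIDO3ΔE16, labelled as DIDO3_exon16 mutant, whose floxed exon16 was deleted in the mouse line by a SOX2-Cre transgene; and DIDO3ΔCT+HADIDO3, labelled as DIDO3_dCT+HADIDO3 mutant, a DIDO3 C-terminal deletion line to which an HA-tagged DIDO3 was returned. DIDO3ΔCT cells without HADIDO3 are not part of this comparison, so the second mutant reads out the deletion and the added protein together. Each group had 3 libraries, because 1 library number stands for both WT replicate 2 and WT replicate 3 (here WT 2-3). The labels do not say that replicates were separate cultures, so the p-values measure only the spread between these libraries.

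Cyclins are regulatory subunits that switch on CDKs. In the division cycle, D-type cyclins with CDK4 and CDK6 act in G1, E- and A-type cyclins with CDK2 act at the entry into and through S phase, and A- and B-type cyclins with CDK1 drive mitosis. INK4 inhibitors (Cdkn2a to Cdkn2d) bind CDK4 and CDK6, and KIP1 (Cdkn1b) binds cyclin-CDK complexes. WEE1 adds inhibitory phosphates to CDKs and CDC25 phosphatases remove them. A second branch of the family (CDK7, CDK8, CDK9, CDK11, CDK12 and CDK13 with cyclins H, C, T, K and L) works in transcription and RNA processing. ESC are known for a short G1 phase and low levels of INK4 inhibitors.

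The measured unit was a site: the annotated 3′UTR of a transcript plus 2 kb downstream, so a value does not cover a whole mRNA. Some sites are those of retained-intron or processed transcripts, as are the most abundant sites of Ccnd1, Ccnl1, Ccnt1 and Cdk11b. The most abundant Ccnh site lies upstream of later Ccnh sites. Such sites can also hold reads of introns or internal exons, which cannot be told apart here. A gene with several annotated 3′ ends has several sites, and features with identical coordinates were summed. The 37 genes had 65 sites, and each gene is described by its most abundant site unless another is named. Values are TPM, which are per length, and are given in the order WT 1, WT 2-3 and WT 4, then replicates 1 to 3 of each mutant. Calls required a log2 fold change of 0.7 or more in size and an adjusted p under 0.05 (limma, Benjamini-Hochberg over all sites tested). Coverage multiplied by length came to 1.46 to 2.62 Gb per library, and each TPM was worth 0.434 to 0.775 reads over every base.

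The targeted gene, Dido1, separated DIDO3ΔE16 from the other groups. At its most distal site, on chromosome 2, TPM was 13.7 to 17.9 in WT, 0.307 to 0.546 in DIDO3ΔE16 and 10.9 to 12.1 in DIDO3ΔCT+HADIDO3. The middle Dido1 site went the other way in DIDO3ΔE16, to 81.7 to 96.1 TPM from 4.78 to 4.90 in WT, and the proximal site had 6.16 to 7.05 TPM against 48.5 to 51.6. These levels do not by themselves show the deletion in DIDO3ΔCT+HADIDO3. The 8 ESC genes checked were detected in every library. In DIDO3ΔCT+HADIDO3, Zfp42 was called higher (75.1 ± 0.775 TPM in WT and 254 ± 12.0; SD, n = 3) and Fgf4 lower (689 ± 18.15 in WT and 404 ± 4.67), with log2 fold changes of 1.65 and −0.87 (limma, adjusted p = 9.02e-05 and 0.000244). Nanog was listed at only 3.10 TPM in WT 4 and Esrrb at 5.18 to 9.70 in WT 1, WT 4 and DIDO3ΔCT+HADIDO3 2, far under the other libraries. Genes of feeder fibroblasts differed between the groups. Summed over 12 such genes, TPM was 103 to 117 in WT, 216 to 224 in DIDO3ΔE16 and 67.5 to 71.9 in DIDO3ΔCT+HADIDO3. Without Thy1, which also rose in DIDO3ΔCT+HADIDO3, the sums were 83.2 to 97.2, 182 to 192 and 15.4 to 16.8. Lum was at 0 in all WT and DIDO3ΔE16 libraries, and Col3a1 and Twist2 were at 0 in all DIDO3ΔCT+HADIDO3 libraries. In bulk RNA, a different number of cells of a type and a different amount of RNA per cell cannot be told apart. The library numbers of WT 1 and WT 4 begin with C7A9 and those of all other libraries with C79M. This beginning is called flow cell family here, although the labels do not name it as a flow cell or batch.

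Among the 37 genes, 10 of 64 sites tested were called in DIDO3ΔE16 relative to WT, 5 higher and 5 lower, in 8 genes. Over all sites, 15.1% were called, 10.2% higher and 4.94% lower. In DIDO3ΔCT+HADIDO3 relative to WT, 9 of 63 member sites were called, 4 higher and 5 lower, again in 8 genes, against 17.3% of all sites (10.1% higher and 7.24% lower). Between the mutants, 13 of 63 member sites were called, 5 higher and 8 lower in DIDO3ΔE16, against 27.4% of all sites (13.9% higher and 13.4% lower). The members' shares were near the background against WT and under it between the mutants. At any fold, 27, 23 and 27 member sites had an adjusted p under 0.05 (limma) in these comparisons, where 33.2%, 38.4% and 49.2% of all sites did. The median log2 fold change of the member sites was −0.09 in DIDO3ΔE16 and 0.08 in DIDO3ΔCT+HADIDO3, where the medians over all sites were both −0.01. The groups did not overlap at 34 of 64 member sites in DIDO3ΔE16 (50.8% of all sites) and at 29 of 63 in DIDO3ΔCT+HADIDO3 (54.7% of all sites). Between the mutants they did not overlap at 34 of 63 (61.8% of all sites). The genes called against WT at their most abundant site, in either mutant, were the cyclin genes Ccnd2 and Ccna1, Cdk6, Cdk5, Cdk12 and the inhibitor genes Cdkn1b, Cdkn2a and Cdkn2b. Ccnt2, Cdk11b and Ccnf were called against WT only at a less abundant site.

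**Figure D1:**
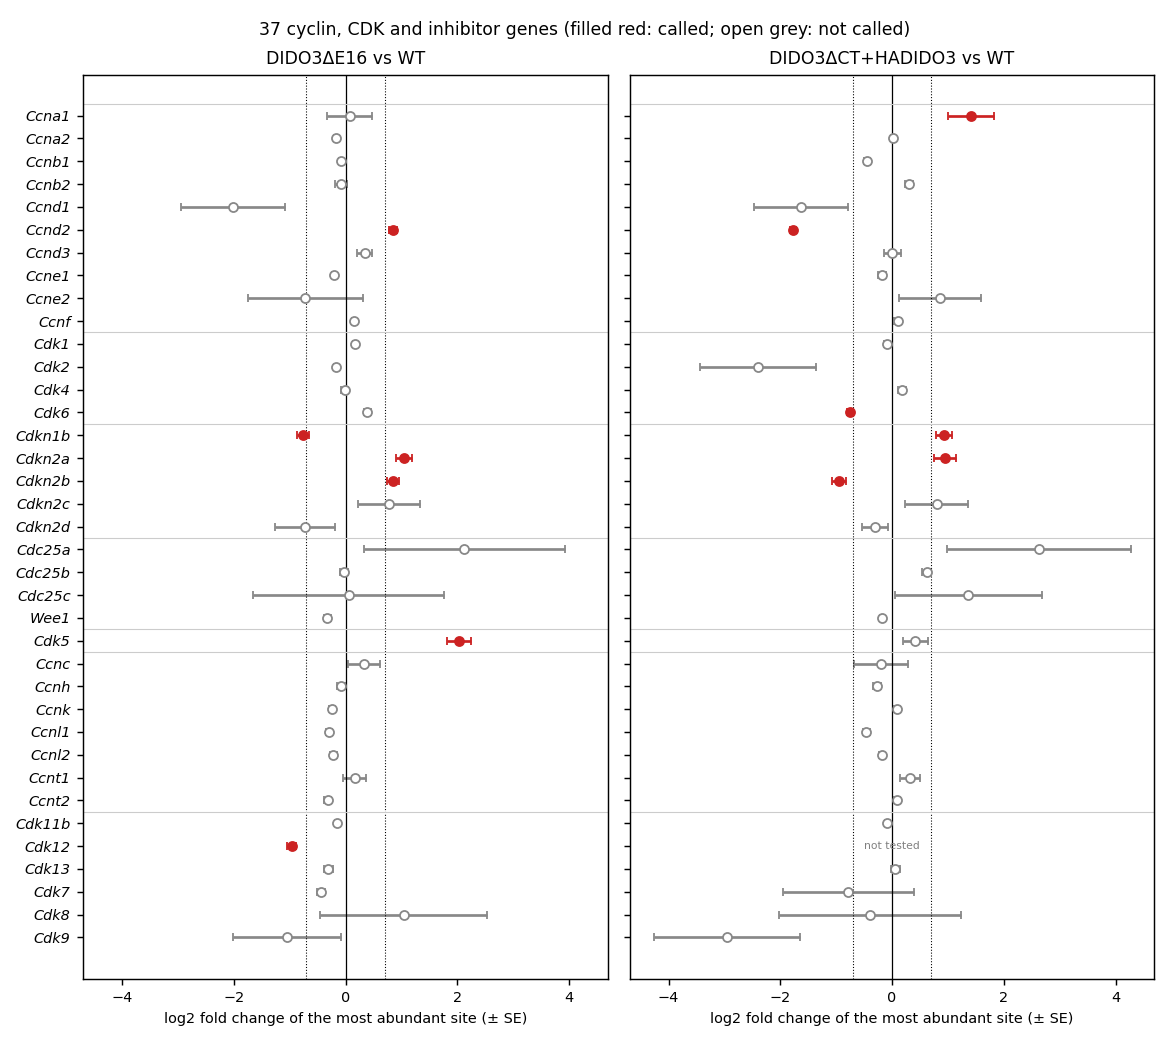
Log2 fold change (horizontal axis, ± SE) of the most abundant site of each of the 37 genes in DIDO3ΔE16 (left) and DIDO3ΔCT+HADIDO3 (right) relative to WT, 3 libraries per group, Cdk12 being not tested on the right, with dotted lines at the fold threshold of 0.7. In each comparison 6 genes were called (filled red), and the widest error bars belong to sites that differed many-fold between libraries of 1 group.

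The clearest difference among the cyclins was at Ccnd2, a D-type cyclin that partners CDK4 and CDK6 in G1. Its site lies on the reverse strand of chromosome 6 (mm10, 127123709 to 127130334) and shares no base with another site on its strand. TPM was 37.1, 36.97 and 38.1 in WT, compared with 63.0, 73.2 and 76.2 in DIDO3ΔE16, and 11.9, 11.7 and 11.5 in DIDO3ΔCT+HADIDO3. The groups did not overlap: Ccnd2 was highest in DIDO3ΔE16 and lowest in DIDO3ΔCT+HADIDO3. The log2 fold change relative to WT was 0.85 (SE 0.075; limma, adjusted p = 0.00132) in DIDO3ΔE16 and −1.77 (SE 0.054; limma, adjusted p = 8.77e-05) in DIDO3ΔCT+HADIDO3. The difference between the mutants was 2.60 (SE 0.081; limma, adjusted p = 3.33e-05). The feeder fibroblast genes had the same order of groups, with 9 of 10 tested called higher in DIDO3ΔE16 and 4 of 6 lower in DIDO3ΔCT+HADIDO3, and their part in the result was not tested.

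Ccnd1 and Ccnd3, the other D-type cyclin genes, were abundant but their overlapping sites shared reads unevenly. At Ccnd1 the site of a retained-intron transcript (chromosome 7, 144931198 to 144933805) had 270, 297 and 261 TPM in WT, compared with 39.6, 31.2 and 297 in DIDO3ΔE16, and 184, 175 and 27.1 in DIDO3ΔCT+HADIDO3. The overlapping site of the coding transcript (144927931 to 144932606) was high where the first was low, with 254, 241 and 135 TPM in DIDO3ΔE16. Neither site was called in a comparison with WT. When the bases of both sites were added and divided by the merged length, which was tried only after the data were seen, values lay between 192 and 212.5 in WT, compared with 206 and 239 in DIDO3ΔE16, and 126 and 132 in DIDO3ΔCT+HADIDO3. On that scale Ccnd1 was lower in DIDO3ΔCT+HADIDO3, with a log2 fold change of −0.77 (SE 0.054; limma, adjusted p = 0.00037), and differed by 0.07 in DIDO3ΔE16 (limma, adjusted p = 0.455). The sum of the feeder genes without Thy1 was also lower in DIDO3ΔCT+HADIDO3, and the part of these genes was not tested. Ccnd3 (chromosome 17, 47598777 to 47601688) was the most abundant member site, at 521 ± 79.3 TPM (SD, n = 3) in WT, and was not called in either mutant. Merged with its overlapping site it changed by 0.32 on the log2 scale in DIDO3ΔE16 and by 0.26 in DIDO3ΔCT+HADIDO3 (limma, adjusted p = 0.00625 and 0.0398), both under the fold threshold. Both genes share bases with a gene on the opposite strand, LTO1 at Ccnd1 and Bysl at Ccnd3, and so does Cdk7 (Ccdc125). These neighbouring sites were listed at 0 in all 9 libraries, which does not show that their genes gave no reads, since an overlapping site can hold them. Neighbours with TPM above 0 share bases with Cdk4 (Tspan31, 516 to 687 TPM), Ccna2 (Exosc9), Ccne2 (Ints8) and a downstream site of Ccnh (Rasa1). In all these genes, reads of the shared bases cannot be told apart.

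CDK6, a G1 partner of D-type cyclins, followed the order of Ccnd2. The Cdk6 site (chromosome 5, 3520792 to 3533005) had 37.1, 35.9 and 33.1 TPM in WT, compared with 44.5, 49.8 and 51.1 in DIDO3ΔE16, and 22.6, 22.5 and 22.3 in DIDO3ΔCT+HADIDO3. All 3 groups were separate, and it was called lower in DIDO3ΔCT+HADIDO3 (log2 fold change −0.75, SE 0.053; limma, adjusted p = 0.000583). Without scaling the change was −0.65, under the fold threshold. In DIDO3ΔE16 the log2 fold change of 0.39 (limma, adjusted p = 0.00898) was also under it. The summed feeder genes had this order of groups as well, and their part was not tested. Cdk4, which shares this role, had 244.5 ± 17.7 TPM in WT, compared with 252 ± 13.8 in DIDO3ΔE16 and 298 ± 11.5 in DIDO3ΔCT+HADIDO3 (SD, n = 3) and was not called.

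Of the stable sites of S phase and mitotic genes, Ccna2, Ccnb1, Ccnb2, Ccne1, Ccnf and Cdk1 were not called against WT at their most abundant site, while Ccna1 was in DIDO3ΔCT+HADIDO3. Cdk2 and Ccne2 are given with the unstable sites. Ccna2, at 363 ± 13.4 TPM in WT, had log2 fold changes of −0.18 in DIDO3ΔE16 and 0.02 in DIDO3ΔCT+HADIDO3. Ccnb1, a mitotic cyclin gene, had 309, 308 and 297 TPM in WT and had 236, 226 and 259 in DIDO3ΔCT+HADIDO3. That change, −0.45 on the log2 scale (limma, adjusted p = 0.00197), was under the fold threshold. Ccnb2 went the other way there, by 0.30 (limma, adjusted p = 0.031), also without a call. Cdk1 (66.0 ± 2.37 TPM in WT), the mitotic kinase gene, and Ccne1 (220 ± 8.67), a G1/S cyclin gene, had log2 fold changes between −0.21 and 0.16 in both mutants. The most abundant site of Ccnf, whose product is a substrate receptor of a ubiquitin ligase, had 277 ± 7.27 TPM in WT and log2 fold changes of 0.15 and 0.10. Ccna1, the germ-line A-type cyclin gene, was near the lower limit, with 0.41, 0.20 and 0.58 TPM in WT, compared with 0.27, 0.56 and 0.46 in DIDO3ΔE16, and 1.38, 0.82 and 1.68 in DIDO3ΔCT+HADIDO3. Its call in DIDO3ΔCT+HADIDO3 (log2 fold change 1.42, SE 0.414; limma, adjusted p = 0.0465) was lost without WT 1, WT 2-3, DIDO3ΔCT+HADIDO3 1 or DIDO3ΔCT+HADIDO3 3 (1.47, 1.10, 1.34 and 1.23; limma, adjusted p = 0.0955 to 0.128). It was lost in 12 of 22 alternatives in all, among them a pseudocount of 1 (0.65; limma, adjusted p = 0.0397) or 0.01 (1.63; limma, adjusted p = 0.0521), a mean of at least 1 TPM, no filter on zeros and quantile normalization (limma, adjusted p = 0.0535, 0.0527 and 0.068).

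Of the 5 CDK inhibitor genes among the members (Cdkn1b and Cdkn2a to Cdkn2d), 3 were called in each mutant, where 15.1% and 17.3% of all sites were. This is a count over few genes that was not tested, and other CDK inhibitor genes are not covered here. Cdkn1b encodes KIP1, which binds cyclin-CDK complexes. At its main site (chromosome 6, 134922075 to 134926058) TPM was 47.1, 35.9 and 43.0 in WT, compared with 25.6, 24.6 and 27.3 in DIDO3ΔE16, and 73.0, 85.1 and 99.98 in DIDO3ΔCT+HADIDO3. The groups did not overlap, and the order was the reverse of that of Ccnd2. The log2 fold change was −0.76 in DIDO3ΔE16 (SE 0.109; limma, adjusted p = 0.00552), 0.93 in DIDO3ΔCT+HADIDO3 (SE 0.142; limma, adjusted p = 0.00595) and −1.70 between the mutants (SE 0.111; limma, adjusted p = 0.000217). The DIDO3ΔE16 change fell under the fold threshold without WT 1 (−0.68), without scaling (−0.69) and with flow cell family as a covariate (−0.54).

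Cdkn2b and Cdkn2a, neighbouring INK4 genes on chromosome 4, did not move alike. Cdkn2b encodes INK4B, and its site (89304289 to 89307053) shares no base with another on its strand. TPM was 9.62, 10.6 and 10.8 in WT, compared with 21.3, 20.5 and 17.2 in DIDO3ΔE16, and 4.89, 6.54 and 5.72 in DIDO3ΔCT+HADIDO3. It was higher in DIDO3ΔE16 (log2 fold change 0.85, SE 0.113; limma, adjusted p = 0.00431) and lower in DIDO3ΔCT+HADIDO3 (−0.95, SE 0.127; limma, adjusted p = 0.00382). This is the order of groups seen for Ccnd2 and for the feeder genes, whose part in it was not tested. Cdkn2a encodes INK4A and ARF, and its main site (89272473 to 89274734) had 1.80, 2.38 and 2.01 TPM in WT, compared with 4.62, 4.51 and 4.54 in DIDO3ΔE16, and 4.98, 3.45 and 4.84 in DIDO3ΔCT+HADIDO3. No library of either mutant was as low as WT. The changes on the log2 scale were 1.05 in DIDO3ΔE16 (SE 0.141; limma, adjusted p = 0.0044) and 0.95 in DIDO3ΔCT+HADIDO3 (SE 0.200; limma, adjusted p = 0.0165).

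The call of Cdkn2a in DIDO3ΔCT+HADIDO3 was lost without DIDO3ΔCT+HADIDO3 1 (0.85; limma, adjusted p = 0.0531) or 3 (0.90; limma, adjusted p = 0.0562) and with flow cell family as a covariate (0.74; limma, adjusted p = 0.131). A longer Cdkn2a site that contains this one (89272473 to 89276665) had 0.531 ± 0.136 TPM in WT and was called higher in DIDO3ΔCT+HADIDO3 (0.96; limma, adjusted p = 0.0288), a call lost without WT 1, WT 4, DIDO3ΔCT+HADIDO3 2 or DIDO3ΔCT+HADIDO3 3 (0.82 to 0.94; limma, adjusted p = 0.0719 to 0.0893), with a pseudocount of 1 (0.47; limma, adjusted p = 0.0229) and with flow cell family as a covariate (0.63; limma, adjusted p = 0.197). Adding the bases of both sites, tried only after the data were seen, gave 0.96 in DIDO3ΔE16 and 0.99 in DIDO3ΔCT+HADIDO3 (limma, adjusted p = 0.00812 and 0.0072). The summed feeder genes, by contrast, were higher than WT in DIDO3ΔE16 and, without Thy1, lower in DIDO3ΔCT+HADIDO3, and their part at Cdkn2a was not tested.

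Cdkn2c and Cdkn2d, the other INK4 genes, were not called. Cdkn2c was at 0.208 to 1.27 TPM in all 9 libraries. Cdkn2d had 44.4 and 40.5 TPM in DIDO3ΔE16 1 and 2 but 12.6 in DIDO3ΔE16 3, and 45.0 ± 1.22 in WT.

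**Figure D2:**
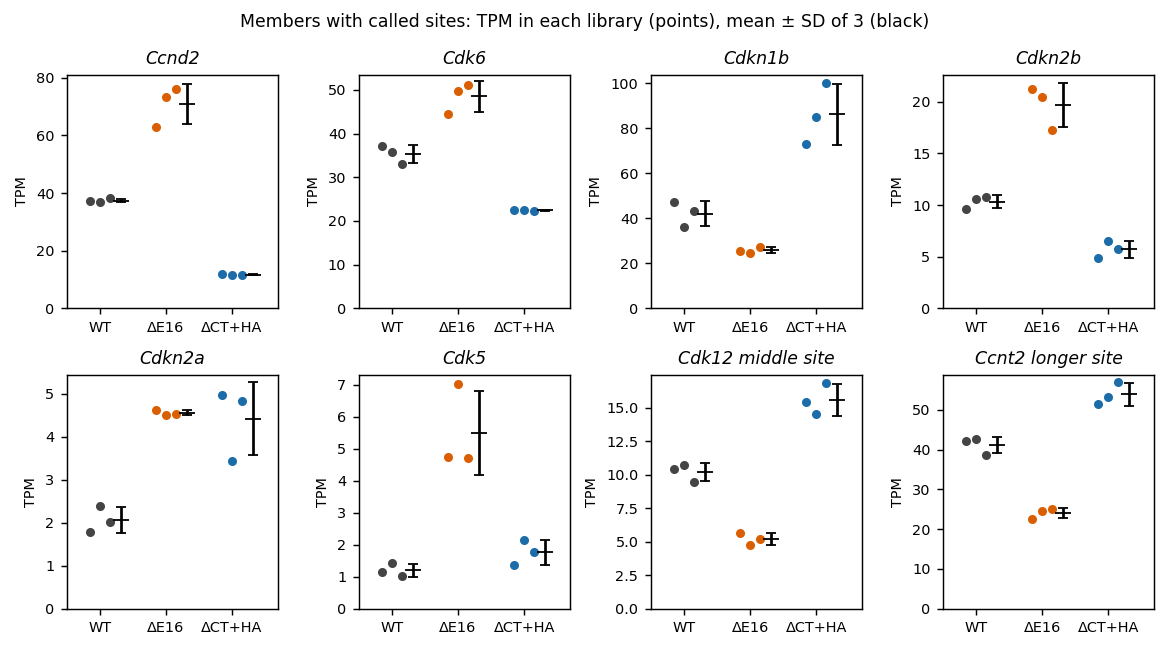
TPM (vertical axes, from 0) of 8 member sites in each library of WT, DIDO3ΔE16 (ΔE16) and DIDO3ΔCT+HADIDO3 (ΔCT+HA), with mean ± SD of 3 libraries in black. Ccnd2, Cdk6 and Cdkn2b are highest in DIDO3ΔE16 and lowest in DIDO3ΔCT+HADIDO3, Cdkn1b shows the reverse order, and Cdkn2a is higher than WT in both.

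**Figure D3:**
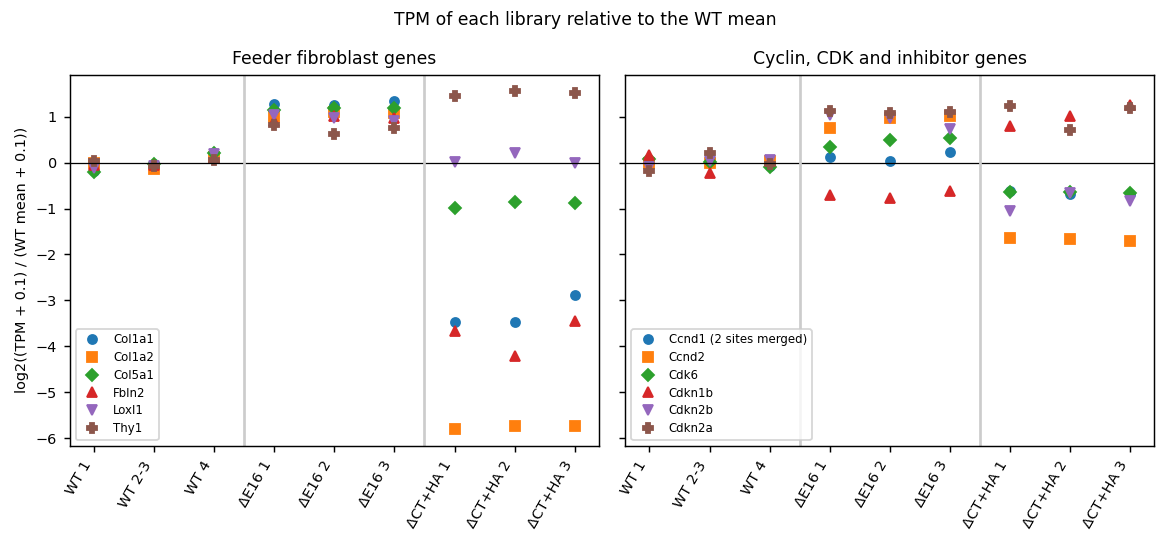
Log2 ratio of TPM + 0.1 in each library to the WT mean + 0.1, for 6 feeder fibroblast genes (left) and 6 member genes (right). Col1a1, Col1a2, Col5a1 and Fbln2 rise in DIDO3ΔE16 and fall in DIDO3ΔCT+HADIDO3, as Ccnd2 and Cdkn2b do, while Cdkn1b goes the other way and Cdkn2a and Thy1 are higher in both. Loxl1 rises in DIDO3ΔE16 only.

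Of the regulators of CDK phosphorylation, Cdc25b had 42.2, 38.1 and 43.6 TPM in WT, compared with 44.4, 42.0 and 40.7 in DIDO3ΔE16, and 63.9, 72.7 and 68.1 in DIDO3ΔCT+HADIDO3. All 3 DIDO3ΔCT+HADIDO3 libraries lay above WT, but the log2 fold change of 0.62 (limma, adjusted p = 0.00281) was under the fold threshold. Wee1, the kinase gene that opposes it, had 106 ± 3.82 TPM in WT and log2 fold changes of −0.33 and −0.18 (limma, adjusted p = 0.0107 and 0.0155). Cdc25c could not be compared, nor could Cdc25a with WT, as described with the other unstable sites. The bases of the overlapping Cdc25a sites were added only after the data were seen. This gave 231 ± 3.56 TPM in DIDO3ΔE16 and 222 ± 5.95 in DIDO3ΔCT+HADIDO3, without a call between the mutants (0.08; limma, adjusted p = 0.0531).

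Cdk5, an atypical CDK known from neurons that is switched on by CDK5R1 and not by a cyclin, had the largest fold change of the called member sites in DIDO3ΔE16. Its site (chromosome 5, reverse strand, 24416242 to 24419375) had 1.13, 1.42 and 1.03 TPM in WT, compared with 4.74, 7.002 and 4.70 in DIDO3ΔE16, and 1.36, 2.15 and 1.78 in DIDO3ΔCT+HADIDO3. DIDO3ΔE16 lay apart from both other groups, at 2.03 on the log2 scale relative to WT (SE 0.219; limma, adjusted p = 0.00229) and 1.60 relative to DIDO3ΔCT+HADIDO3 (SE 0.239; limma, adjusted p = 0.00362). The level is low, and the site shares 1629 bases with a site of Asic3 on the opposite strand, whose TPM was 45.4, 15.5 and 46.9 in WT, compared with 28.0, 30.6 and 29.5 in DIDO3ΔE16, and 47.0, 47.3 and 52.0 in DIDO3ΔCT+HADIDO3. A longer Asic3 site shares 1865 bases with it and had 13.9 TPM in WT 2-3, where the first was low, and 0.050 to 1.03 in the other libraries. The quantification named no strand option, so reads of the shared bases cannot be assigned to 1 of the genes. Cdk5r1 itself, from the list of CDK partners, had 2.33 ± 0.462 TPM in WT, compared with 6.42 ± 0.947 in DIDO3ΔE16 and 1.39 ± 0.338 in DIDO3ΔCT+HADIDO3 (SD, n = 3). It was called higher in DIDO3ΔE16 (log2 fold change 1.37; limma, adjusted p = 0.00435) and lower in DIDO3ΔCT+HADIDO3 (−0.81; limma, adjusted p = 0.0431). Of the feeder genes, 9 of 10 tested were called higher in DIDO3ΔE16 and 4 of 6 lower in DIDO3ΔCT+HADIDO3. Their part at Cdk5 and Cdk5r1 was not tested.

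Several members of the transcriptional branch end at more than 1 place, and the annotated ends themselves differ. The 30 bases below are the reference sequence at such ends of Cdk12, Ccnt2 and Ccnl2, read from GENCODE M21 transcripts (mm10), 5′ to 3′ on the forward strand. Capitals mark a poly(A) signal hexamer, AATAAA or ATTAAA, where the last 50 transcribed bases held one. These sequences are shown because the sites of these ends, which run on past them, changed to different extents. The end of the most abundant Cdk12 site could not be read and is not shown.
Cdk12 first end, processed transcript, chr11:98225493-98225522: gccagcttgaaacttcaagactcttacctc
Cdk12 second end, protein-coding transcript, chr11:98246675-98246704: aaagctaatacactcatatgtcttgattca
Ccnt2 first end, retained-intron transcript, chr1:127795771-127795800: ttcattttacttctagatagcattttattt
Ccnt2 shorter downstream end, chr1:127804808-127804837: caggcaagccactgctggggttttacatgc
Ccnt2 longer downstream end, chr1:127805732-127805761: tttagatatgggAATAAAggtaattttgtt
Ccnl2 first end, retained-intron transcript, chr4:155815829-155815858: tagtggaactctgtctcagatagattagat
Ccnl2 last end, chr4:155824514-155824543: ccctgttctcATTAAAgtgttagattttgt
Of 51 distinct member ends whose last 50 bases could be read, 22 held AATAAA and a further 5 only ATTAAA, 52.9% in all. Among 52183 ends of protein-coding transcripts, 48.2% held either, counting matches on the transcribed strand only. The longer Ccnt2 end and the last Ccnl2 end hold a hexamer and the other 5 ends shown do not.

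CDK12 is the kinase that, with cyclin K, phosphorylates the C-terminal domain of RNA polymerase II during elongation and is known for its role in expressing long genes. Cdk12 was lower in DIDO3ΔE16 at 3 separate ends. At its most abundant site, the third (chromosome 11, 98250390 to 98255540), TPM was 62.0, 57.4 and 50.9 in WT and 29.7, 28.9 and 32.5 in DIDO3ΔE16. The log2 fold change was −0.96 (SE 0.081; limma, adjusted p = 0.00117). At the second end (site 98245699 to 98248704) TPM was 10.4, 10.7 and 9.42 in WT, compared with 5.61, 4.78 and 5.21 in DIDO3ΔE16, and 15.4, 14.5 and 16.8 in DIDO3ΔCT+HADIDO3. All 3 groups were separate there, with log2 fold changes of −1.02 in DIDO3ΔE16 (SE 0.099; limma, adjusted p = 0.00171) and 0.51 in DIDO3ΔCT+HADIDO3 (limma, adjusted p = 0.00626, under the fold threshold).

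At the first Cdk12 end (site 98222849 to 98227522) TPM was 14.0 ± 1.17 in WT, compared with 8.79 ± 0.324 in DIDO3ΔE16 and 14.6 ± 0.241 in DIDO3ΔCT+HADIDO3 (SD, n = 3). The DIDO3ΔE16 change of −0.72 (SE 0.081; limma, adjusted p = 0.00259) fell to −0.69 without WT 1, WT 2-3 or DIDO3ΔE16 2, and to −0.66 without scaling, under the fold threshold. The third site was listed at 0 in DIDO3ΔCT+HADIDO3 1, where a site that contains it and reaches further downstream (98250390 to 98255899) took 53.2 TPM, so it was not tested against that group. When the bases of these overlapping sites were added, tried only after the data were seen, values were 47.7 to 58.0 in WT, 27.1 to 30.6 in DIDO3ΔE16 and 52.6 to 57.4 in DIDO3ΔCT+HADIDO3. The summed log2 fold change was −0.95 in DIDO3ΔE16 (limma, adjusted p = 0.000602) and −0.07 in DIDO3ΔCT+HADIDO3 (limma, adjusted p = 0.484). Cdk12 TPM summed over all its sites was likewise lower in DIDO3ΔE16 (−0.93; limma, adjusted p = 0.000641).

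The genes of the cyclin partner and the closest relative of CDK12 were not called against WT in either mutant. Ccnk, the gene of its cyclin, had 227 ± 9.94 TPM in WT and log2 fold changes of −0.24 in DIDO3ΔE16 (limma, adjusted p = 0.0292) and 0.08 in DIDO3ΔCT+HADIDO3. Cdk13, its closest relative, had 37.4 ± 3.92 TPM in WT, compared with 31.5 ± 2.14 in DIDO3ΔE16 and 41.5 ± 2.29 in DIDO3ΔCT+HADIDO3 at its main site, and neither that nor its retained-intron site was called.

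Cyclin T2, encoded by Ccnt2, joins CDK9 in the elongation factor P-TEFb. The longer of its overlapping downstream sites (chromosome 1, 127803460 to 127807761) had 42.1, 42.6 and 38.7 TPM in WT, compared with 22.6, 24.7 and 24.99 in DIDO3ΔE16, and 51.5, 53.1 and 57.1 in DIDO3ΔCT+HADIDO3. It was lower in DIDO3ΔE16, with a log2 fold change of −0.83 (SE 0.056; limma, adjusted p = 0.000675). The shorter and more abundant site (127803560 to 127806837) had 216 ± 16.6 TPM in WT and changed by −0.32 (limma, adjusted p = 0.0157), without a call. With the bases of both added, tried only after the data were seen, the change was −0.40 (limma, adjusted p = 0.00313). At the upstream retained-intron end (site 127791776 to 127797800) TPM was 25.4, 24.2 and 21.9 in WT, compared with 20.8, 21.4 and 19.6 in DIDO3ΔE16, and 31.4, 35.0 and 38.7 in DIDO3ΔCT+HADIDO3, and only the difference between the mutants was called (−0.74, SE 0.078; limma, adjusted p = 0.00103). Without DIDO3ΔCT+HADIDO3 3 it was −0.69, under the fold threshold. Ccnt1, the related cyclin gene, was at 1.56 to 2.91 TPM in all libraries, at the site of a retained-intron transcript, and was not called.

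Ccnl2, a cyclin gene linked to splicing, differed between the mutants at its first end only. This retained-intron site (chromosome 4, 155815412 to 155817858) had 31.9, 25.3 and 21.4 TPM in WT, compared with 19.2, 20.8 and 20.1 in DIDO3ΔE16, and 34.9, 34.2 and 46.2 in DIDO3ΔCT+HADIDO3. WT lay between the mutants and was not called against either, while the mutants differed by −0.90 (SE 0.117; limma, adjusted p = 0.0022). The last Ccnl2 site (155823698 to 155826543) had 80.1 ± 3.63 TPM in WT, compared with 72.1 ± 3.78 in DIDO3ΔE16 and 75.8 ± 1.38 in DIDO3ΔCT+HADIDO3, and differed by −0.06 between the mutants (limma, adjusted p = 0.468).

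The balance between separate sites of a gene was tested for the 10 member genes that have them. It was read as the log2 ratio of the most downstream site to the most abundant site that shares no base with it. None was called in DIDO3ΔE16 (10.5% of the ratios of all genes were) or in DIDO3ΔCT+HADIDO3 (9.91%) by limma, where 1 and 3 of the 10 had an unadjusted p under 0.05. The Ccnt2 ratio changed by −0.56 in DIDO3ΔE16 (limma, adjusted p = 0.0187) and the Cdk11b ratio by −0.68 in DIDO3ΔCT+HADIDO3 (limma, adjusted p = 0.0127), both under the fold threshold. Between the mutants 2 ratios were called, against 23% of all ratios. They were Ccnl2, with a difference of 0.85 in the log2 ratio (SE 0.149; limma, adjusted p = 0.0114), and Ccnd2, with 3.004 (SE 0.551; limma, adjusted p = 0.013). The upstream site was that of a retained-intron transcript for Ccnf, Ccnl1, Ccnl2, Ccnt2 and Cdk13, and of a processed transcript for Cdk11b and Cdk12. Such ratios can also follow reads of introns or internal exons, so they do not by themselves measure the use of alternative ends. Some of the 10 ratios rest on low or unstable sites. The upstream Ccnd2 site had only 0.043 to 0.527 TPM. The downstream site in the Ccnh ratio had 0.039 to 0.212 TPM. The Cdk12 ratio used the site that ends furthest downstream, at 0.076 to 0.243 TPM in all libraries but DIDO3ΔCT+HADIDO3 1, against the first end, and not the third site. The Ccnl1 ratio rests on a site that dropped in single libraries, and the Ccnc ratio on one at 22.02 to 58.2 TPM within DIDO3ΔCT+HADIDO3. The Ccnl2 call was lost without DIDO3ΔCT+HADIDO3 3, which left 1 called ratio.

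**Figure D4:**
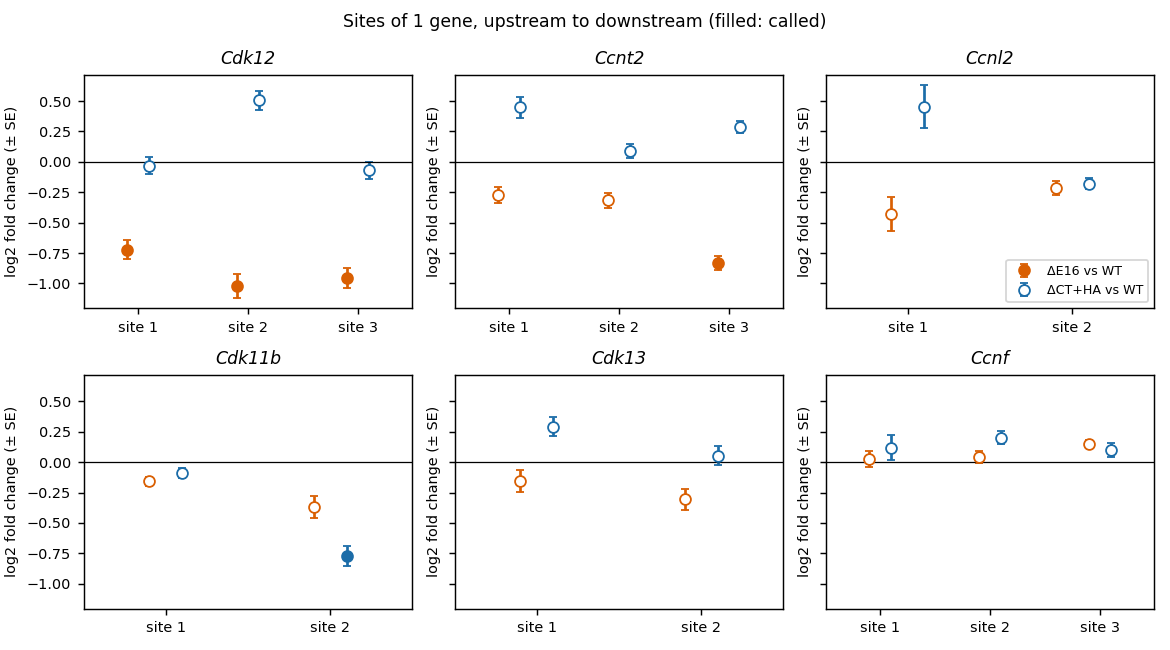
Log2 fold change relative to WT (vertical axes, ± SE) of separate or overlapping sites of 6 member genes, ordered from upstream to downstream, in DIDO3ΔE16 (orange) and DIDO3ΔCT+HADIDO3 (blue), filled where called. Site 3 of Cdk12 shows the summed overlapping sites. All 3 Cdk12 sites are lower in DIDO3ΔE16, by 0.72 to 1.02, whereas only the longer downstream site of Ccnt2 (site 3) is called.

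Smaller sites of other members were also called. Cdk11b, a kinase gene of transcription and splicing, had a downstream site (chromosome 4, 155649785 to 155651932) at 12.6 ± 0.903 TPM in WT, compared with 10.2 ± 0.646 in DIDO3ΔE16 and 7.87 ± 0.353 in DIDO3ΔCT+HADIDO3 (SD, n = 3). It was called lower in DIDO3ΔCT+HADIDO3 (−0.77; limma, adjusted p = 0.00181), and its change was −0.67 without scaling. The main Cdk11b site, that of a processed transcript upstream, had 153 ± 7.35 TPM in WT and a log2 fold change of −0.09 there. The downstream site shares bases with a site of Mmp23 on the opposite strand at 65.7 to 86.4 TPM. A retained-intron site of Ccnf (chromosome 17, 24234973 to 24237076) had 2.48, 3.47 and 3.15 TPM in WT, compared with 4.90, 6.35 and 5.02 in DIDO3ΔE16, and 1.81, 0.778 and 1.66 in DIDO3ΔCT+HADIDO3. Its call in DIDO3ΔE16 (0.76; limma, adjusted p = 0.0295) was lost without any 1 of WT 1, WT 4 and the 3 DIDO3ΔE16 libraries (0.61 to 0.82; limma, adjusted p = 0.0582 to 0.085). Its call in DIDO3ΔCT+HADIDO3 (−1.21; limma, adjusted p = 0.0461) was lost without any 1 of the WT libraries, DIDO3ΔCT+HADIDO3 1 or 3 (−1.43 to −1.11; limma, adjusted p = 0.0511 to 0.125). Summed with the far more abundant site it overlaps, Ccnf changed by 0.06 and 0.09 (limma, adjusted p = 0.529 and 0.547). The feeder genes had the order of groups of this retained-intron site, and their part was not tested.

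The remaining transcriptional cyclins were not called against WT at their main sites. Ccnh, whose protein activates CDK7, had 8.55 ± 0.471 TPM in WT at an upstream site, and a downstream site (chromosome 13, 85211966 to 85214611) was called only between the mutants (−0.88; limma, adjusted p = 0.0446). This site had 1.78 to 5.47 TPM and shares 1913 bases with a Rasa1 site on the opposite strand at 43.3 to 59.7 TPM. That call was lost without any 1 of the DIDO3ΔE16 libraries, DIDO3ΔCT+HADIDO3 2 or 3 (−0.97 to −0.71; limma, adjusted p = 0.0731 to 0.116). Ccnc, the cyclin of CDK8, had 26.1, 26.0 and 23.5 TPM in WT, compared with 33.5, 31.2 and 31.2 in DIDO3ΔE16 and 40.5, 45.6 and 44.6 in DIDO3ΔCT+HADIDO3 at its separate downstream site (chromosome 4, 21759429 to 21761922). The groups there did not overlap, but the change in DIDO3ΔCT+HADIDO3 of 0.69 (limma, adjusted p = 0.00112) was just under the fold threshold. Ccnl1, the relative of Ccnl2, had log2 fold changes of −0.30 and −0.46 at its retained-intron site (limma, adjusted p = 0.00877 and 0.004), without a call.

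Set directly against each other, the mutants were not called different at Cdkn2a (0.08; limma, adjusted p = 0.722) or the retained-intron Ccnl1 site (0.14; limma, adjusted p = 0.0787). At the downstream sites of Cdk11b (0.38; limma, adjusted p = 0.00854) and Ccnc (−0.43; limma, adjusted p = 0.00296) they did not overlap, and only the fold threshold was missed. DIDO3ΔE16 was higher than DIDO3ΔCT+HADIDO3 at Cdk6 (1.12; limma, adjusted p = 0.000127), Cdkn2b (1.79; limma, adjusted p = 0.000393) and the retained-intron Ccnf site (1.95; limma, adjusted p = 0.00624). It was lower at the second Cdk12 end (−1.55; limma, adjusted p = 0.000186), the first Cdk12 end (−0.71; limma, adjusted p = 0.000504) and the longer Ccnt2 site (−1.14; limma, adjusted p = 7.82e-05). Without DIDO3ΔE16 2 the first Cdk12 end was at −0.68, under the fold threshold. Ccnt2 was also under it with the bases of its overlapping downstream sites added (−0.56; limma, adjusted p = 0.000353) and summed over the gene (−0.59; limma, adjusted p = 0.000373). Ccna1 was lower too (−1.36; limma, adjusted p = 0.0249), a call lost without DIDO3ΔE16 1 or 3 or DIDO3ΔCT+HADIDO3 1 or 3 (−1.41 to −1.13; limma, adjusted p = 0.0592 to 0.0746) and with a pseudocount of 1 (−0.65; limma, adjusted p = 0.0249). The member sites not named here, minor sites of Ccnc, Ccnd2, Ccnf, Ccnh, Ccnt2, Cdk12 and Cdkn1b, were not called in any comparison, and 1 of the Ccnc sites (21747535 to 21749962), listed at 0 in 5 libraries, was not tested.

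For 12 member sites in 10 genes, libraries of 1 group differed at least 4-fold although a library of the series reached 10 TPM. Among member sites that reached 10 TPM, these were 0 of 18 sites listed as 1 feature that share no base on their strand, 4 of 12 listed as 1 feature that do, and 8 of 16 listed as several features with identical coordinates. Over all genes the shares were 0.53%, 48.0% and 35.9%. Cdk2, the S phase kinase gene, had 12.2 and 17.1 TPM in DIDO3ΔCT+HADIDO3 1 and 2 but 158 in DIDO3ΔCT+HADIDO3 3, and 159 ± 2.73 in WT. In the low libraries the largest of its 3 features held 40.1% and 40.6% of the summed TPM, and in DIDO3ΔCT+HADIDO3 3 it held 99.5%. DIDO3ΔE16 had a split of 47.6% to 52.2% without a drop, at 148 ± 6.01 TPM.

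Cdk7, Cdk8 and Cdk9 also differed many-fold between libraries of 1 group, without one pattern in their features. Cdk9, the catalytic subunit of P-TEFb, had 7.74 TPM in DIDO3ΔE16 2, 3.28 in DIDO3ΔCT+HADIDO3 2 and 3.43 in DIDO3ΔCT+HADIDO3 3, but 63.6 to 72.0 in the other 6 libraries. Its largest feature held 76.5% to 80.6% of the sum in the low libraries and 64.1% to 76.8% in the others. Cdk8, a Mediator kinase, lay at 5.95 to 10.2 TPM in 5 libraries and at 95.3 to 105 in the other 4. Cdk7, the kinase of the CDK-activating complex, had 2.69 TPM in DIDO3ΔCT+HADIDO3 2 and 40.1 and 43.0 in the other libraries of that group, although its largest feature held 52.2% in the low library and 52.1% in DIDO3ΔCT+HADIDO3 3. Its change in DIDO3ΔE16, where no library dropped, was −0.44 (limma, adjusted p = 0.00749). The phosphatase gene Cdc25c had 0.87 TPM in WT 4 and 1.35 in DIDO3ΔE16 3, against 17.2 to 20.5 elsewhere. At Cdc25a, the G1/S phosphatase gene, both overlapping sites were at 2.34 and 2.63 TPM in WT 1, while their merged value was 217 to 238 in the other 8 libraries. The downstream site of Ccnl1 dropped to 4.07 in WT 1 and 2.98 in DIDO3ΔCT+HADIDO3 3 from 19.2 to 26.7 elsewhere, and Ccne2 ranged from 1.03 to 16.1 TPM over all libraries. In comparisons with a group whose libraries differed this much, the standard errors of these genes were 0.733 to 2.12 on the log2 scale. In DIDO3ΔE16 vs WT, where no library dropped at Cdk7 or Cdk2, they were 0.0692 and 0.0341.

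**Figure D5:**
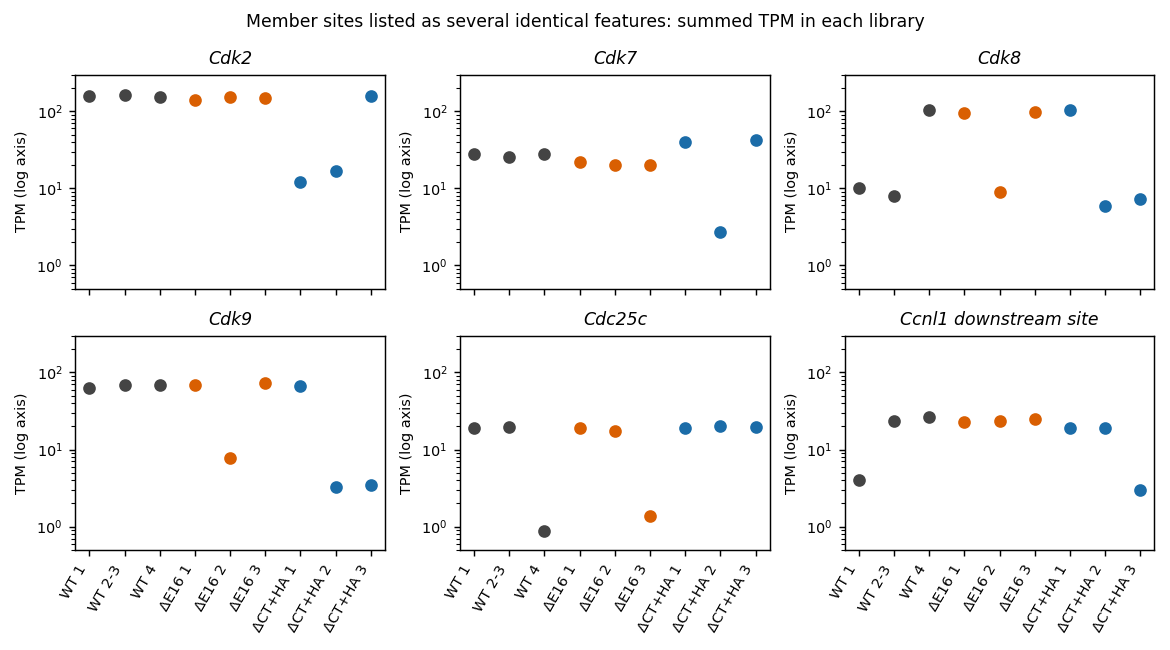
Summed TPM (vertical log axis) of 6 member sites that are listed as several features with identical coordinates, in each of the 9 libraries of WT (grey), DIDO3ΔE16 (orange) and DIDO3ΔCT+HADIDO3 (blue). Libraries of the same group differ several-fold, and the low libraries are a different set for each gene.

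The wider cell cycle machinery was read from gene lists, each gene by its most abundant site, and the counts stand beside 15.1% of all sites called in DIDO3ΔE16 and 17.3% in DIDO3ΔCT+HADIDO3. In DIDO3ΔE16, 0 of 19 RB and E2F genes were called by limma (9 with an unadjusted p under 0.05), 1 of 23 replication licensing genes (Gins1, 92.1 ± 29.4 TPM in WT and 44.9 ± 1.54 in DIDO3ΔE16, log2 fold change −1.04; limma, adjusted p = 0.0361) and 0 of 11 checkpoint kinase genes (3 with an unadjusted p under 0.05). In DIDO3ΔCT+HADIDO3, 3 of the 19 RB and E2F genes were called, a share near that of all sites. Rb1, which encodes the retinoblastoma protein that cyclin D-CDK4/6 complexes phosphorylate, had 41.1 ± 2.96 TPM in WT, compared with 38.0 ± 3.83 in DIDO3ΔE16 and 77.4 ± 6.46 in DIDO3ΔCT+HADIDO3 (log2 fold change 0.81; limma, adjusted p = 0.00132). E2f2 rose from 27.5 ± 0.513 to 57.5 ± 1.55 TPM (0.96; limma, adjusted p = 0.000136) and E2f3 fell from 86.3 ± 6.64 to 55.6 ± 2.695 (−0.74; limma, adjusted p = 0.000905). Both encode transcription factors that RB binds. E2f3 had 96.1 ± 4.65 TPM in DIDO3ΔE16, which gives it the order of groups of the feeder genes, whose part was not tested. In DIDO3ΔCT+HADIDO3, 1 of 23 licensing genes, Dbf4 (−0.77; limma, adjusted p = 0.00101), and 1 of 11 checkpoint kinase genes, Atm (−0.77; limma, adjusted p = 0.000539), were lower.

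Among 15 other cyclins and CDKs tested, Ccno was called higher in DIDO3ΔE16 (0.92; limma, adjusted p = 0.00159), and 4 were called in DIDO3ΔCT+HADIDO3, where 15.1% and 17.3% of all sites were. Ccng2, a cyclin gene linked to cell cycle arrest, had 39.8 ± 2.29 TPM in WT, compared with 26.96 ± 2.48 in DIDO3ΔE16 and 83.1 ± 13.4 in DIDO3ΔCT+HADIDO3, the same order of groups as Cdkn1b. Its log2 fold change in DIDO3ΔCT+HADIDO3 was 0.95 (limma, adjusted p = 0.00331). Ccnjl (−1.28), Cdk14 (−0.98) and Cdk19 (−0.81) were lower there (limma, adjusted p = 0.000136, 0.00491 and 0.000308). Ccnjl (31.1 ± 1.35 TPM in WT, compared with 40.1 ± 2.04 in DIDO3ΔE16 and 13.7 ± 0.388 in DIDO3ΔCT+HADIDO3) and Cdk14 (3.47 ± 0.415, 4.36 ± 0.474 and 1.84 ± 0.167) had the order of groups of the feeder genes, whose part was not tested. Of 29 CDK partners and regulators, Cdk5r1 and Pkmyt1, a WEE1-like kinase gene (−0.72; limma, adjusted p = 0.00251), were called in DIDO3ΔE16 and Cdk5r1 alone in DIDO3ΔCT+HADIDO3. The median log2 fold changes of these 5 lists lay between −0.17 and 0.10 in both mutants.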

How the data were processed

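The RNA-seq data comprise 9 ESC libraries. Reads had been aligned to mm10 with BWA-MEM (0.7.15) and quantified with StringTie (1.3.3), per the labels and methods, on UCSC 3′UTRs extended by 2 kb, with no strand option in the deposited command line. For every feature, the authors deposited TPM in each library. Mean coverage, also deposited by the authors (used for depth only), gave 1.46 to 2.62 Gb per library. Read counts were not used here.

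Of 43031 features, 42367 were given a symbol from GENCODE M21. Features with identical coordinates were summed to 28706 sites. Sites with TPM above 0 in every library of a comparison were scaled between libraries (trimmed mean of log2 ratios, 30% off each tail). After a pseudocount of 0.1, limma was fitted to the log2 values (3.58.1, R 4.3.3; trend, robust, 2-sided, Benjamini-Hochberg over all sites), 3 libraries per group. Fold changes on this scale understate changes of low sites. The same fit was made on ratios of sites within a gene. The procedure was run on simulated data with independent normal noise and known changes. That simulation did not reproduce reads moving between overlapping sites or drops in single libraries, so it does not bear on such sites. Summaries used Python (3.11.15), numpy (2.4.6) and pandas (2.3.3).

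Members and lists were chosen with earlier results of these data known. All 37 members are described, by the most abundant site unless stated, with every called site; pathway list genes are given by counts and named only where called against WT. Alternatives varied pseudocount, filter, scaling, covariates, moderation, thresholds, feature summing and the libraries included. Sites of 1 feature that share no base, and summed bases of overlapping sites, were chosen after seeing the data.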

Additional observations from a re-analysis of the deposited data

How the results depend on the processing

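The numbers of called member sites (10, 9 and 13 in DIDO3ΔE16 vs WT, DIDO3ΔCT+HADIDO3 vs WT and DIDO3ΔE16 vs DIDO3ΔCT+HADIDO3) stayed within 1.5 times under most alternatives, and over leaving out each library they were 7 to 11, 7 to 8 and 11 to 14. Summing TPM over the gene gave 6 (DIDO3ΔE16 vs WT) and 8 (between the mutants), sites that share no base on their strand gave 4, 5 and 8, and such sites of 1 feature gave 4, 3 and 7, all from fewer sites tested. An adjusted p under 0.01 gave 5 in DIDO3ΔCT+HADIDO3 vs WT. Of the single called sites, 185 of 217, 150 of 197 and 245 of 273 alternative values kept the call. The retained-intron Ccnf site reversed when summed over the gene (0.13 in DIDO3ΔCT+HADIDO3 vs WT, −0.0412 between the mutants) or merged with the site it overlaps (0.0873 and −0.0503), by construction, since the other sites are more abundant.

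Called site ratios were 1 with a pseudocount of 1 in DIDO3ΔE16 vs WT and DIDO3ΔCT+HADIDO3 vs WT (Ccnd2) and 1 with quantile normalization or a 1.5-fold threshold in DIDO3ΔCT+HADIDO3 vs WT (Cdk11b), where leaving out libraries gave 0 to 1. Between the mutants they were 1 with a mean of at least 1 TPM, 0 with an adjusted p under 0.01 and 1 to 2 over leaving out libraries. The causes were not tested. Quantile normalization moved the share of higher calls over all sites from 67.4% to 55.0% in DIDO3ΔE16 vs WT.

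Replicate numbers did not pair the samples (same-number correlations of −0.06 to 0.03). With the replicate number as a block, 0 member sites were called by limma against WT in either mutant (23 and 19 with an unadjusted p under 0.05). Of all 21063 and 20879 sites, 0 were called as well, with folds about as large (Ccnd2 0.83 and −1.72). Against WT, the last library of each group has no partner of the same number and adds nothing to the blocked difference. The libraries left give little measure of spread, so these counts of 0 cannot show whether the calls hold. Between the mutants, where every library has a partner, the block gave 11 called member sites and 1 called ratio (Ccnl2). A flow cell family term could not be fitted between the mutants, which share 1 family. Low coverage limits sites near 1 TPM.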
